A study of Mus musculus with 6 samples.

Results

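The distal H3K4me3 peaks of untreated mouse embryonic fibroblasts (MEFs) were 1383 of the 11157 peaks in the deposited list. They were chosen by position and length. A peak was distal when it was shorter than 6000 bp and no protein-coding gene of GENCODE M1 (mouse genome mm9) started inside it or within 5000 bp of either edge. Of the other peaks, 8980 were shorter than 6000 bp with a coding gene start within that distance (coding-start peaks), and 794 were 6000 bp or longer (broad peaks), of which 90 were also far from coding gene starts. The cells were wildtype MEFs from littermate embryos of 13.5 days, of a C57BL/6x 129 background, passaged 4 times. H3K4me3 was profiled in untreated cells with 1 ChIP-seq library and 1 input library, and RNA was sequenced from 1 untreated library and from 1 library each at 1.5, 6 and 24 hr of TNFα at 20 ng/ml. With 1 library of each kind, no difference given here carries a test. Intervals given are exact 95% intervals and cover counting error alone, and peaks of 1 library are not replicates of each other. Primary MEFs are an uncloned culture and can hold several cell types of the embryo.

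Trimethylation of lysine 4 on histone H3 is placed by SET1 and MLL complexes, which are drawn to CpG-rich DNA through CXXC-domain subunits, and it marks nucleosomes around active and poised transcription starts. A peak away from every coding gene start can lie at an alternative promoter of a coding gene, at the promoter of a noncoding RNA, at a gene of RNA polymerase III such as a tRNA gene, or at an enhancer with some of the mark. RNA polymerase II promoters of vertebrates are mostly CpG islands, whereas tRNA genes carry their promoter within the gene, as an A box and a B box that bind TFIIIC.

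Windows of 200 bp around the summit are shown for 4 distal peaks, because they show how far the sequence under the same mark ranged. The first is the peak with the most tags (chr8:86724963-86725162), and the second the peak with the highest fold enrichment (chr9:21125320-21125519). The third has the highest fold enrichment among start-less peaks (chr2:94018746-94018945), and the fourth is the start-less peak with the fewest CpG in 1000 bp (chr13:109083514-109083713). Start-less here means without a GENCODE start or a start of a RefSeq coding gene or lncRNA within 1000 bp. All are written from the plus strand of mm9 with each CpG in capitals.
Most tags: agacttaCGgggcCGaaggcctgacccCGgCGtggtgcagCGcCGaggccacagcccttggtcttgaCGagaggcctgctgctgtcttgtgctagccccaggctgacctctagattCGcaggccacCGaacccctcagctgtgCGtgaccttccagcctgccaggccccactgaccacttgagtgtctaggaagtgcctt
Highest fold enrichment: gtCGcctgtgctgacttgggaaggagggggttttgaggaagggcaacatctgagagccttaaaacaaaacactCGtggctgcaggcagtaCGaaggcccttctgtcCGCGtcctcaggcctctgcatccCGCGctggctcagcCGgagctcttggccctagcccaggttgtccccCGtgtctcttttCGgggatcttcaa
No start, highest fold enrichment: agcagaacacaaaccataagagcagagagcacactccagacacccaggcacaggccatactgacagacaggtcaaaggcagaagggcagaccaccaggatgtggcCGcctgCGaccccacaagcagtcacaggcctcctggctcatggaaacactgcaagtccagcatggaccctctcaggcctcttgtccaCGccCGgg
No start, fewest CpG: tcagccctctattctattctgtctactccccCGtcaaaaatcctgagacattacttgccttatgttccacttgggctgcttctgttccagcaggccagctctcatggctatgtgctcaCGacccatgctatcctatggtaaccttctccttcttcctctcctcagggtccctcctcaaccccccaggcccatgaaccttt
The first and the second window held 10 CpG each, the third held 4 and the fourth held 2.

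A further set of 5 sequences is shown because it carries a pattern found in a small share of the start-less distal peaks, several of them in 1 stretch of chromosome 13. Each has the letters TGGCNNAG of a tRNA-type A box and, 25 to 80 bases on, the letters GTTCGANTC of a B box, both in capitals, with 20 bases before and 20 after. They are the 5 of these peaks with the highest fold enrichment, at chr1:173031961-173032064 (minus strand), chr13:21367812-21367906 (plus), chr14:51702497-51702599 (minus), chr7:127978985-127979087 (minus) and chr13:21292060-21292185 (plus).
Chromosome 1 pair: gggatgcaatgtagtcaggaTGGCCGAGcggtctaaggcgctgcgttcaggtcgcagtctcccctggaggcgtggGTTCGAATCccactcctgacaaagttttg
Chromosome 13 pair, near Gpx5: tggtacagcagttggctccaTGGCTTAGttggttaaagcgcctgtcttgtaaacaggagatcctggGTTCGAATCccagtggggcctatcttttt
Chromosome 14 pair: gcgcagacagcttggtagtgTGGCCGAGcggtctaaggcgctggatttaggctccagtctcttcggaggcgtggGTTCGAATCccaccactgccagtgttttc
Chromosome 7 pair: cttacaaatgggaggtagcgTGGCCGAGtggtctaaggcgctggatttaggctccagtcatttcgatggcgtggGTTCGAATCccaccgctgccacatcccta
Chromosome 13 pair, near Trim27: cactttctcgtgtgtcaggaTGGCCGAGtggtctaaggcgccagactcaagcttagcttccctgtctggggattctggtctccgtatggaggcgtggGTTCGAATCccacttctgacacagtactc
The boxes were 47, 38, 46, 46 and 69 bases apart in this order.

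Promoters of 300 bases, from 250 before to 50 after the RefSeq start, are shown for the noncoding genes Meg3 (chr12:110778956-110779255, plus strand) and Snhg8 (chr3:123211205-123211504, minus strand), each at a distal peak. RefSeq windows were matched base for base to mm9, and 914 windows lay within 5000 bp of a distal peak. Capitals mark CpG, of which Meg3 held 13 and Snhg8 held 30.
Meg3: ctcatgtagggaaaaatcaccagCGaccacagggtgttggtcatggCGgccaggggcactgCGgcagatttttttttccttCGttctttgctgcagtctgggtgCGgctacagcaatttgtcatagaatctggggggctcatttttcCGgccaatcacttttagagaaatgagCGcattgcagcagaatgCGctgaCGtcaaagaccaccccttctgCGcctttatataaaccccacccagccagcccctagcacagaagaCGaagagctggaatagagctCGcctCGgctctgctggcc
Snhg8: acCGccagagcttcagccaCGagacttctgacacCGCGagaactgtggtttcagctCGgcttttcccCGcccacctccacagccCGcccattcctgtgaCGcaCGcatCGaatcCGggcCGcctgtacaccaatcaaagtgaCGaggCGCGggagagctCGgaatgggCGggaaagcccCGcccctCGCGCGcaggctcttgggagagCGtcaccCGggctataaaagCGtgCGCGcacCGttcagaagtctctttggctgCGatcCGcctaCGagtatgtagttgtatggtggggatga
Mature miRNAs encoded within 5000 bp of a distal peak are shown from RefSeq (mm9 hairpins) for the peak with the most tags and for Mir17hg, a polycistronic host RNA, with the seed (bases 2 to 8) in capitals.
miR-17-5p: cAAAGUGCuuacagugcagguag
miR-20a-5p: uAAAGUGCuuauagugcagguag
miR-19a-3p: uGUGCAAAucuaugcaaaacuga
miR-19b-3p: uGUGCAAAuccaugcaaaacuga
miR-23a-3p: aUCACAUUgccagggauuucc
miR-27a-3p: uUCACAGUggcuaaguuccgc
miR-24-3p: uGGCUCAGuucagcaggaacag
Of these, miR-17-5p and miR-20a-5p shared the seed AAAGUGC, and miR-19a-3p and miR-19b-3p shared GUGCAAA.

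RNA from the cells held the markers of its fibroblast label at differing levels. The 8 fibroblast markers were listed in each of the 4 libraries between 0.432 and 513.5 RPKM (reads per kilobase of transcript, scaled to the reads of the library), and their sum ranged from 503.2 to 1057.5. Of the 4 leukocyte markers, Cd68 was the one above 1 RPKM, and the list lay between 0.101 and 9.6 RPKM with a sum of 2.85 to 11.6. The lowest fibroblast marker, Pdgfra, had 1.31, 1.54, 0.432 and 0.656 RPKM at 0, 1.5, 6 and 24 hr. It lay below Cd68 (7.06, 9.6, 2.36 and 3.64) in each library. The 3 endothelial markers reached at most 0.045 RPKM and the 3 epithelial ones at most 0.039, with Epcam listed at 0 in each library. The part of other cells in any value below was not tested.

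Far from a coding gene start did not mean far from every annotated start, since GENCODE lists further starts of coding genes and starts of noncoding genes. A transcript of a coding gene other than the one that defines the gene start began within 1000 bp of 485 distal peaks (35.07%). A noncoding gene started at another 175 (12.65%), and a noncoding isoform of a coding gene at 26 (1.88%). A further 146 (10.56%) lay inside a coding gene with no start, and 551 (39.84%) had no start and lay outside coding genes. The summit was in an exon of a coding gene in 250 peaks, in an intron in 425 and outside coding genes in 708.

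RefSeq starts of coding genes and lncRNAs filled part of this gap. Starts of other RefSeq types, such as miRNA and tRNA genes, were not counted. A RefSeq coding start lay at 120 distal peaks (8.68%) that had no coding transcript start in GENCODE, and counting both annotations left 519 (37.53%) without a start, 126 of them inside a coding gene. The 120 included Rnf4 (a SUMO-targeted ubiquitin ligase), Tnc (the matrix protein tenascin C), Il6st (the signal-transducing receptor subunit gp130), Hnrnpf (a splicing factor) and Hdac4 (a histone deacetylase). Their peaks held 2144, 2106, 1825, 1647 and 1590 tags. The chart of classes gives the counts by GENCODE alone and by both annotations.

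**Figure D1:**
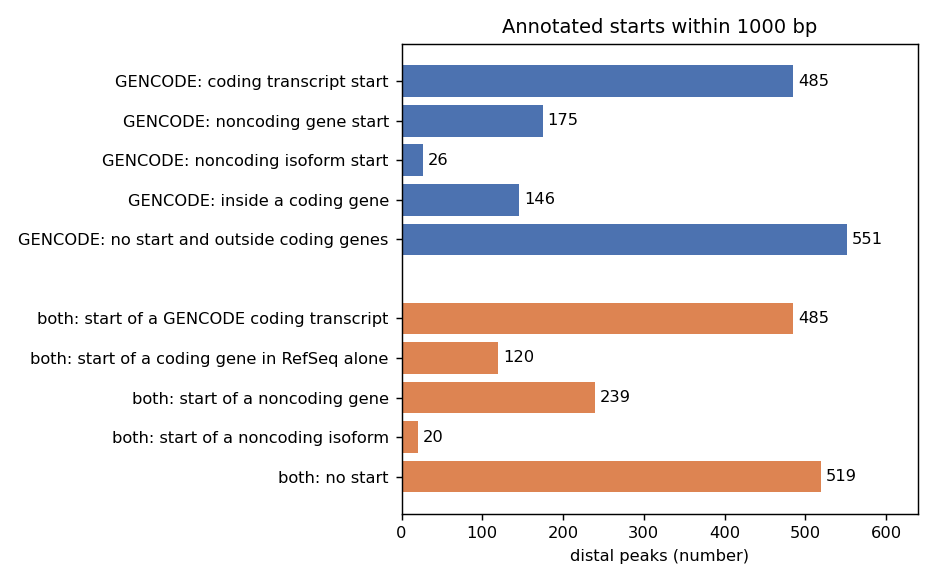
Number of distal peaks (horizontal axis) by the annotated start within 1000 bp, with blue bars for the 5 GENCODE classes and orange bars for GENCODE and RefSeq together. Peaks with no start outside coding genes made the longest blue bar with 551, and 519 peaks had no start in either annotation. From RefSeq, only starts of coding genes and lncRNAs were counted.

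Any noncoding gene start, whether or not a coding transcript also started there, lay at 217 distal peaks (15.69%), against 10.62% of coding-start peaks, 20.15% of broad peaks and 11.93% of the whole list. They took in 255 noncoding genes, of which 106 were lincRNAs, 61 processed transcripts, 32 miRNAs, 26 pseudogenes, 19 snoRNAs, 5 snRNAs, 5 misc_RNAs and 1 rRNA. The share at distal peaks was thus above that of coding-start peaks and below that of broad peaks.

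Distance to the nearest coding gene start had a median of 26097 bp. The distance was at most 10000 bp for 264 peaks, 10000 to 50000 bp for 695, 50000 to 100000 bp for 239, 100000 to 500000 bp for 172, and more for 13. The 5 farthest peaks were those at an alternative start of Ptprd, a receptor tyrosine phosphatase (1169419 bp), at an alternative start of Lrrc4c, a synaptic adhesion protein (1147742 bp), at a RefSeq start of Lsamp, another neural adhesion protein (1082414 bp), and 2 without a start, chr10:123724920-123726286 (1023788 bp) and chr3:25041736-25045072 (809767 bp). Of the 5 farthest, 3 thus lay at the start of a long neural gene, and they held 1103, 1316 and 232 tags. The 2 without a start held 124 and 754.

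Values at the edges of the rule were as follows. The longest distal peaks were 5990 bp (Tnc) and 5979 bp (Foxp1), with 2106 and 2269 tags, and the shortest broad peaks far from coding gene starts were 6025 bp (Bri3) and 6053 bp (Rbfox2), with 2282 and 2362 tags. The distal peaks closest to a coding gene start were at 5003 bp (Map3k12) and 5022 bp (Nfyc), and the first peaks left out were at 4890 and 4868 bp. The latter pairs held 468 and 940 tags inside the rule and 199 and 776 outside it.

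Distal peaks carried fewer tags than coding-start peaks. The median was 209.4 tags per kb of peak (quartiles 134.7 and 300.2) against 329.9 in coding-start peaks and 325.7 in broad peaks. Median fold enrichment over local background was 34.95 against 46.5, and median length was 2450 bp against 3157 bp. The distal peaks held 7.07% of the tags in listed peaks, although they were 12.4% of the peaks and 9.33% of the covered bases.

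Within distal peaks the density differed by annotation. The median was 274.3 tags per kb at coding transcript starts, 226.6 at noncoding gene starts, 194.4 at noncoding isoform starts, 145.3 inside coding genes without a start and 167.6 outside them. Without a start in either annotation it was 146.4, with a fold enrichment of 29.68. The 120 peaks with a RefSeq coding start alone had 261.3, close to the class of coding transcript starts. Median length also differed. In the order of the GENCODE classes above it was 3057, 2493, 2718, 2007 and 1960 bp. These classes were not compared at equal length.

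**Figure D2:**
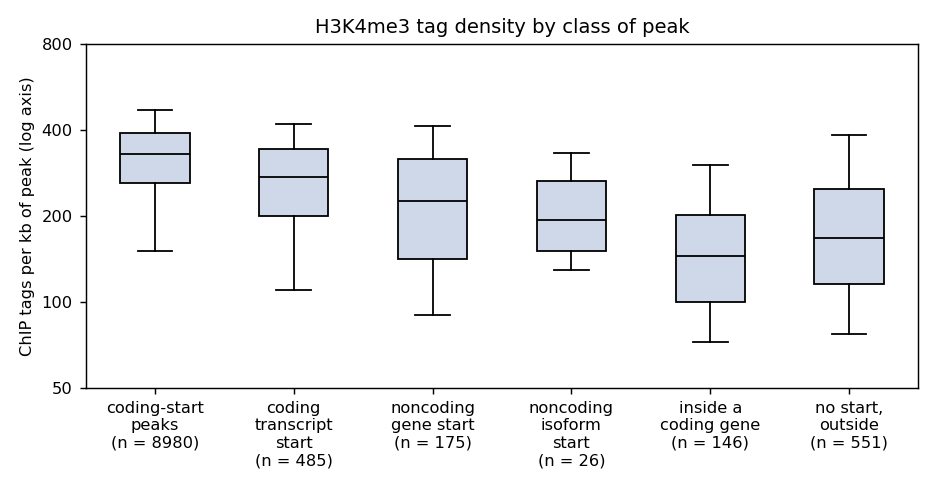
ChIP tags per kb of peak (log axis) in coding-start peaks and in the 5 classes of distal peaks, with boxes from the first to the third quartile, a line at the median and whiskers to the 5th and 95th percentiles. Medians ran from 329.9 in coding-start peaks to 145.3 in distal peaks inside a coding gene, and the ranges overlapped.

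Length was used by the rule and tags grow with it, so the densities were also set side by side within bins of length. Below 1500 bp the medians were 109.4 in distal peaks and 127.4 in coding-start peaks. From 1500 to 2500 bp they were 178.3 and 271.7, from 2500 to 3500 bp 266.2 and 333.9, and from 3500 to 6000 bp 287.0 and 356.3. Distal peaks were lower in each bin. The ratio of medians was 0.635 over all lengths and ranged from 0.656 to 0.858 over the bins.

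The peak with the most tags in the distal set, chr8:86723825-86728891, held 2711 tags (2609.9 to 2815.0) at a fold enrichment of 72.9 and had none of the starts counted. The hairpins of Mir23a, Mir27a and Mir24-2, a cluster of miRNAs transcribed as one unit, lay 3526 to 3823 bp beyond its edge. Next came chr5:100854997-100860275 with 2573 tags (2474.5 to 2674.4), at the start of the lincRNA gene 5430416N02Rik, and chr15:67005389-67010868 with 2410 (2314.7 to 2508.2), which had no start and lay 59467 bp from St3gal1, a sialyltransferase gene.

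The other 7 of the 10 peaks with the most tags lay at starts of coding transcripts. They were those of Lima1 (an actin-binding protein, 2406 tags), Bdnf (a neurotrophin with many promoters, 2318), Dlc1 (2307), Rreb1 (a zinc finger transcription factor, 2303), Foxp1 (a forkhead transcription factor, 2269), Phf17 (a subunit of histone acetyltransferase complexes, 2211) and Rnf4 (2144, from RefSeq). High tag numbers thus came mostly, but not in each case, with the start of a coding transcript.

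Ranking by fold enrichment gave other peaks. The top value was 173.0 at chr9:21124626-21127613, at a RefSeq start of Slc44a2, a choline transporter-like protein, with 1481 tags (1406.5 to 1558.4). Aqr, a spliceosome helicase, followed with 157.3 and 920 tags. The third, at 154.2 with 587 tags (540.5 to 636.5), was chr9:78023259-78025401, where GENCODE lists both 7SK, the RNA polymerase III RNA that holds P-TEFb inactive, and the lincRNA C920006O11Rik.

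The remaining places among the 10 highest were mixed in kind. Usp45 and Usp14, both deubiquitinases, had fold enrichments of 152.7 and 145.5, Pprc1, a coactivator of the PGC-1 family, had 128.7 and Zfp72, a zinc finger gene with a RefSeq start, had 127.9. Peaks without a start were chr2:94017106-94019515 at 150.8 (942 tags), chr7:118264709-118267337 at 135.4 (1006 tags) and chr1:173031607-173034266 at 135.0 (803 tags). The last of these holds the chromosome 1 pair of A box and B box letters shown above. No peak was among the 10 highest by both tags and fold enrichment.

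Repeated sequence touched few of these peaks. In 24 distal peaks (1.74%), against 0.33% of coding-start peaks, more than 50% of the 31-base sequences around the summit occurred elsewhere in mm9. The window was 1000 bp, and reads from such peaks could belong to other copies. Without these 24 the median density was 211.3 tags per kb. Another peak lay within 5000 bp of 9.4% of distal peaks and of 10.58% of coding-start peaks, a share of similar size.

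Distal peaks were less CpG-rich than coding-start peaks in a window of 1000 bp around the summit. The median ratio of observed to expected CpG was 0.618 against 0.737, and the median GC content was 55.2% against 59.6%. A window was called CpG-rich at a GC content of at least 55% and a ratio of at least 0.65. That held for 456 distal peaks (32.97%), 61.07% of coding-start peaks and 59.45% of broad peaks.

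By class, the CpG-rich share was 47.63% at coding transcript starts, 37.14% at noncoding gene starts, 23.08% at noncoding isoform starts, 19.86% inside coding genes and 22.69% outside. Without a start in either annotation it was 18.11%. The order of the classes was close to their order in tag density. The share depended on the window. At 500 bp it was 44.11% against 71.06% in coding-start peaks, at 2000 bp 13.67% against 27.32%, and over the whole peak 4.77% against 4.83%. Whole peaks differed in median length, 2450 bp against 3157 bp, and the share fell with longer windows in both sets. The whole-peak shares thus do not compare windows of equal length.

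**Figure D3:**
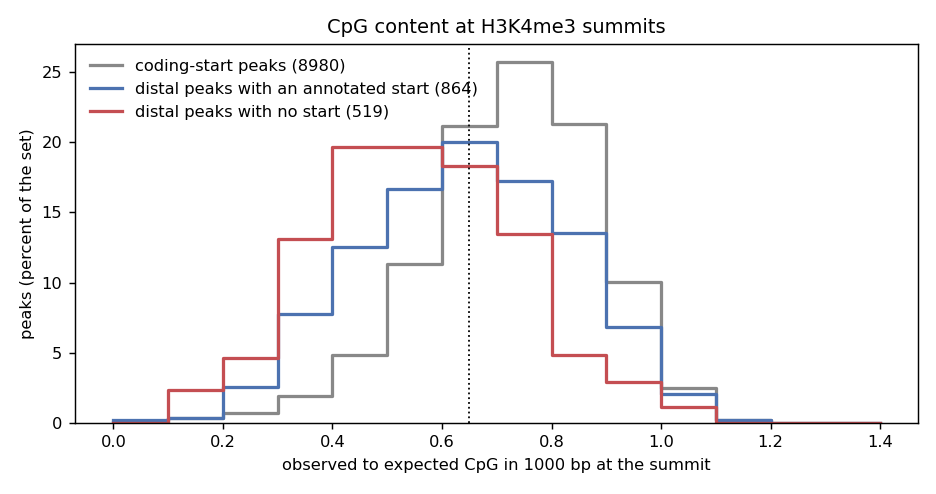
Ratio of observed to expected CpG (horizontal axis, no unit) in the 1000 bp around the summit, as a histogram in percent of each set for coding-start peaks, distal peaks with an annotated start and distal peaks with no start, with a dotted line at 0.65. Distal peaks without a start lay furthest to the left, with a median of 0.556 against 0.737 in coding-start peaks.

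Density was higher in distal peaks of higher CpG content. In 4 bins of equal size from the lowest to the highest CpG ratio, the median density was 136.4, 181.0, 231.9 and 293.6 tags per kb, and the median length 1889, 2187, 2520 and 3113 bp. These bins share a single library and differ in length, so the figures are a description.

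Letters of 10 transcription factor motifs were searched on both strands in 500 bp around each summit. The AP-1 letters TGANTCA, bound by Fos and Jun proteins, were in 8.68% of distal windows, 11.95% of those without a start and 5.18% of the windows at other peaks. Windows of low GC content match such letters more often, so shares were also taken within bins of GC content. Below 50% GC they were 15.29% (10.05 to 21.89) in start-less distal peaks and 10.36% (7.19 to 14.3) in other peaks.

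From 50 to 60% GC the AP-1 shares were 13.27% (9.0 to 18.61) and 6.61% (5.71 to 7.59), and from 60% they were 6.62% (3.22 to 11.84) and 4.34% (3.87 to 4.86). In the middle bin the intervals did not overlap, and in the outer bins they did. Distal peaks with a start had 10.71%, 7.69% and 5.34% in the same bins. One such match, in a start-less peak on chromosome 19, is shown from chr19:12084916-12085042 (plus strand), with the AP-1 letters in capitals.
AP-1 letters: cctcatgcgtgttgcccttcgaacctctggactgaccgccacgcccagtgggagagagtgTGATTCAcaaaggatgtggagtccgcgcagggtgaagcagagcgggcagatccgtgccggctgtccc

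For the TATA box and the Sp/Klf letters, shares in distal and other windows lay closer within bins of GC content than without bins. TATAAA, the TATA box, was in 9.76% of distal windows and 5.81% of others, yet in 20.33% and 20.71% below 50% GC, 10.71% and 10.13% from 50 to 60%, and 4.85% and 3.32% above. GGGCGG, bound by Sp and Klf proteins, was in 58.57% against 70.39%, and in 19.5% against 22.01%, 48.57% against 53.03% and 82.23% against 79.87% in the bins. The letters CCGGAAG of ETS factors, in 11.86% against 16.18% without bins, stayed lower in distal windows within the bins, with 6.64% (3.84 to 10.56) against 8.41% (5.57 to 12.09), 14.34% (11.45 to 17.64) against 17.99% (16.58 to 19.47) and 11.79% (9.36 to 14.6) against 15.78% (14.91 to 16.68). The intervals did not overlap in the bin of highest GC content and overlapped in the other bins.

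For the rest, shares in distal and in other windows were 37.31% and 34.56% for CCAAT (NF-Y), 9.4% and 9.74% for GGGNNTTCC (a type of site bound by NF-κB), 9.69% and 9.58% for CCACNAGG (the core bound by CTCF), 1.95% and 1.69% for TGACGTCA (CREB), 1.74% and 1.92% for GCGCATGCG (NRF1), and 84.45% and 80.44% for CANNTG (E-box). The letters of NF-Y, CREB, NRF1 and the E-box were not compared within bins of GC content. TGANTCA and TGACGTCA cannot match the same bases, while GGGCGG can overlap other GC-rich letters. The kB-type letters, those nearest to the TNFα pathway, were about as common in distal windows as in others.

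Distal peaks were unevenly spread over chromosomes. Chromosome 13 had the highest share, 108 of its 487 peaks (22.18%), and chromosome 9 the lowest, 59 of 610 (9.67%). Within chromosome 13, 35 distal peaks lay between 21 and 24 Mb, with the first at 21249755 and the last ending at 23612413, and 26 of them had no start. This stretch holds histone genes, zinc finger genes and butyrophilin genes. By megabase, the most distal peaks lay in the megabase from 21 to 22 Mb of chromosome 13 (15 peaks), followed by the megabases that began at 23 Mb of chromosome 13 (13 peaks), 96 Mb of chromosome 3 (8), 128 Mb of chromosome 6 (7) and 22 Mb of chromosome 13 (7).

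The search for tRNA-type boxes was made after these clusters were seen. No tRNA gene was counted as a start, so a peak at a tRNA gene with no other start was start-less by definition. How much of the contrast between start-less peaks and peaks with a start restates this definition was not tested. A box letters followed by B box letters at 25 to 80 bases, on either strand and anywhere in the peak, were in 17 of 519 distal peaks without a start, 3.28% (1.92 to 5.19). They were in 3 of 864 distal peaks with a start, 0.35% (0.072 to 1.01), in 30 of 8980 coding-start peaks, 0.33% (0.226 to 0.477), and in 9 of 794 broad peaks, 1.13% (0.52 to 2.14). Per megabase covered, this came to 16.43 pairs in start-less distal peaks, 1.16 in those with a start, 1.01 in coding-start peaks and 2.1 in broad peaks.

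Location of the pairs also differed. On chromosome 13 they were in 10 of 50 start-less distal peaks (20.0%), all of them in the stretch from 21 to 24 Mb, and on other chromosomes in 7 of 469 (1.49%). The median distance from summit to pair was 264 bp in start-less distal peaks, where 14 of 17 had one within 350 bp, against 722.5 bp in coding-start peaks, where 7 of 30 did. In the 9 broad peaks it was 1349 bp and none was within 350 bp. The whole peak was searched, so longer peaks allow longer distances. Median length was 1858 bp in start-less distal peaks (3015 bp in the 17 with a pair), 3157 bp in coding-start peaks and 7089 bp in broad peaks. The part of length in the distances was not tested.

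The 17 peaks with a pair stood above the other start-less peaks in enrichment. Their median fold enrichment was 50.4 (range 21.37 to 134.95) against 29.3 in the 502 without a pair, with 222.5 against 144.5 tags per kb, a length of 3015 against 1849 bp and a CpG ratio of 0.708 against 0.552. The ranges overlapped, since start-less peaks without a pair reached a fold enrichment of 150.8. The 35 distal peaks between 21 and 24 Mb of chromosome 13, 10 of them with a pair, had a median fold enrichment of 49.6. Their median CpG ratio was 0.669. Whether the higher enrichment went with the pair or with this stretch was not tested. RefSeq lists tRNA genes between the same flanking coding genes for 16 of the 17 (94.12%), for 52 of 497 start-less peaks without a pair (10.46%) and for 39 of 858 distal peaks with a start (4.55%). The intervals between flanking genes had medians of 85668, 162005 and 156929 bp. In that annotation 105 of the 408 nuclear tRNA genes were on chromosome 13, and their own positions in mm9 were not used here.

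**Figure D4:**
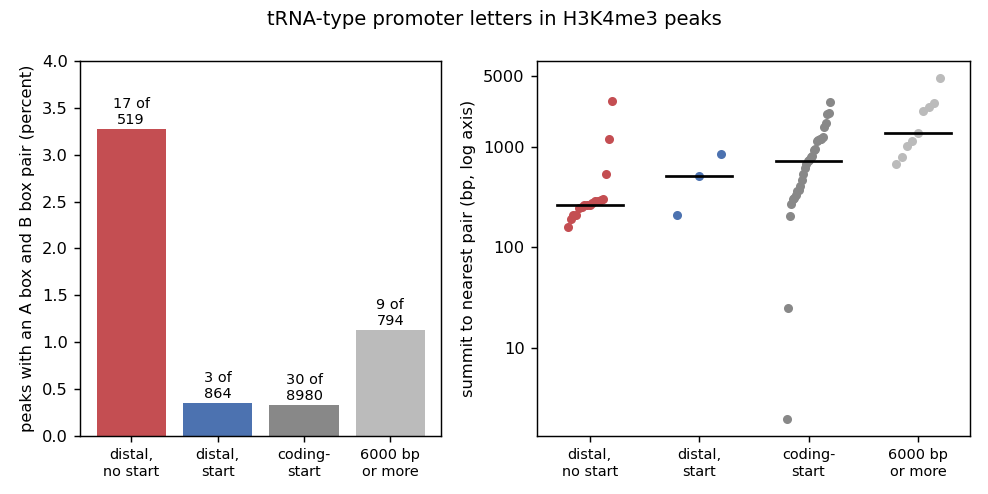
Peaks with a pair of A box and B box letters, as percent of each set (bars, with counts above them) and as bp from the summit to the nearest pair (log axis, 1 point a peak, line at the median). Start-less distal peaks had the highest share, 3.28%, and 14 of their 17 points lay within 350 bp. No tRNA gene was counted as a start.

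Members of the noncoding lists fell into different kinds of peak. Of the 11 imprinted or X-inactivation RNAs, 6 started at a distal peak. They were Meg3, Airn, Kcnq1ot1 and Nespas, which are expressed from 1 parental allele, and Jpx and Ftx of the X-inactivation centre. Their peaks held 942, 1008, 1356, 1016, 700 and 717 tags at fold enrichments of 34.75, 35.4, 35.4, 64.6, 32.4 and 34.4. H19, Rian, Mirg and Snhg14 had no peak within 1000 bp, and Peg13 was not placed.

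Of 16 host genes of snoRNAs, 5 started at a distal peak. They were Snhg5, Snhg7, Snhg8, Dancr and Epb4.1l4aos, with 1335, 1505, 1736, 1141 and 1089 tags at fold enrichments of 86.3, 71.6, 39.0, 40.6 and 48.3. Another 7 of the list lay at broad peaks and 2 at coding-start peaks. Among 23 nuclear and other lncRNAs and miRNA hosts, Cyrano (Oip5os1), Firre and Mir17hg were at distal peaks, with 1127, 486 and 1353 tags, whereas 11 were at broad peaks, Malat1 and Neat1 among them. The 7 RNA polymerase III genes of the list, Rn7sk among them, were not placed by symbol. GENCODE does list a gene named 7SK at the distal peak chr9:78023259-78025401 described above.

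Hairpins of miRNAs lay inside or within 5000 bp of 30 distal peaks, 45 hairpins in all, of which 28 were inside 19 peaks. These 30 peaks were CpG-rich in 56.67% and had a median of 257.6 tags per kb. By class, 17 were at noncoding gene starts, 6 at coding transcript starts, 3 at RefSeq coding starts and 4 at no start. GENCODE miRNA entries count as noncoding genes, so a hairpin can itself place its peak in that class. RefSeq miRNA genes were not counted as starts, and the start-less peaks at Mir7228 and Mir8120 hold the hairpin. The summit was 1 bp from Mir137 and 33 bp from Mir199b, and the 6 hairpins of Mir17hg lay 1216 to 1972 bp from theirs. Different peaks held the hairpins of miR-193a and miR-193b, whose 3p arms share the seed ACUGGCC.

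RNA levels were available from the RefSeq entries of noncoding genes. A gene's level in bulk RNA cannot tell fewer cells of a type from less RNA per cell. The table had 103 noncoding entries of 87 genes at 73 distal peaks. Of the 87 genes, 24 (27.59%) had an average above 1 RPKM over the 4 libraries, against 310 of 1769 noncoding genes in the table (17.52%), and 8 were listed at 0 throughout. The median of the average level was 0.129 against 0.0688 RPKM. The 24 are not all separate loci, as Firre and 6720401G13Rik are names of 1 locus and Snord49b and 2410006H16Rik start at the same peak.

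The 4 libraries differed in their overall level. The median entry lay 0.41 above untreated at 1.5 hr, 0.73 below at 6 hr and 0.08 above at 24 hr on the log2 scale, so changes are also given relative to this shift. Each library had 2 columns, R1 and R2, which the labels do not name as replicates, and the level of a library was their mean.

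At 1.5 hr of TNFα, 5 of the 24 genes lay 2-fold or more above the untreated library and 4 lay 2-fold or more below it. Of the 310 noncoding genes 27.4% were higher and 21.0% lower, and of coding genes 29.9% and 7.83%. At 6 hr 1 was higher and 8 were lower, beside 2.26% and 29.7% of noncoding and 1.74% and 31.6% of coding genes. At 24 hr 1 was higher and 8 were lower, beside 17.1% and 24.8% of noncoding and 16.8% and 12.7% of coding genes. Relative to the library shift the counts were 1 higher and 8 lower at 1.5 hr (background 16.8% and 33.2%), 2 and 2 at 6 hr (13.2% and 8.71%) and 1 and 8 at 24 hr (15.8% and 27.1%). After scaling each library to the same sum, 3 were higher and 0 lower at 6 hr, so the number of lower calls at that time depended on the scaling. At 24 hr 4.2% of the 24 genes were higher on both scales, against 17.1% of noncoding genes on the deposited scale and 15.8% relative to the shift. At 1.5 hr 4.2% were higher relative to the shift, against 16.8%. The share lower at 24 hr was 33.3% on both scales, against 24.8% and 27.1%. With 24 genes, the other counts on these 2 scales stood nearer to the background of noncoding genes.

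Medians of the log2 change were −0.19, −0.76 and −0.54 at 1.5, 6 and 24 hr for the 24 genes, and 0.02, −0.63 and −0.20 for the 310. The distal set thus had the lower median at each time.

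Meg3, an imprinted RNA expressed from the maternal allele, was the most abundant noncoding RNA at a distal peak. It had 272.4 RPKM untreated, 84.9 at 1.5 hr, 231.4 at 6 hr and 100.9 at 24 hr, and the 2 columns were 298.4 and 246.4, 86.2 and 83.7, 281.7 and 181.0, and 105.2 and 96.6. Its log2 changes were −1.68, −0.24 and −1.43, or −2.10, 0.50 and −1.51 relative to the shift. Levels at 1.5 and 24 hr lay below both other libraries in each column, and the sign at 6 hr turned with the scaling.

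The imprinted antisense RNA Airn had the same order of times, with 2.81, 1.11, 2.46 and 1.19 RPKM. The lincRNA 4933407K13Rik had 4.59, 1.447, 2.57 and 1.35. Pisd-ps2, a pseudogene with a sequence around the peak summit that partly recurs elsewhere, had 12.96, 4.86, 11.1 and 6.46 RPKM. In these 3 as in Meg3, the untreated library was the highest and the 6 hr library the next on the deposited scale. Relative to the shift, the log2 changes at 6 hr were 0.54 for Airn, −0.10 for 4933407K13Rik and 0.51 for Pisd-ps2. The sign at 6 hr thus turned with the scaling for Airn and Pisd-ps2, as for Meg3. Their log2 changes at 1.5 hr were −1.34, −1.66 and −1.42.

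Morrbid, a lincRNA next to the gene of the apoptosis factor Bim, was the one gene of the 24 at least 2-fold higher at 6 hr on the deposited scale. Its levels were 4.11, 5.21, 10.7 and 4.64 RPKM, and in both columns the 6 hr values (11.4 and 9.93) were above those of the other libraries (3.99 to 5.31). The log2 change at 6 hr was 1.38, and 2.11 relative to the shift. 4933439C10Rik, with 1.66, 0.86, 2.76 and 0.96 RPKM, also peaked at 6 hr, at a log2 change of 0.73 and 1.47 relative to the shift.

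Several RNAs were higher at 1.5 hr and in part at 24 hr. Snhg8, whose introns hold a snoRNA, had 3.10, 8.11, 1.47 and 4.92 RPKM. Its columns differed widely within a library (1.57 and 4.64 untreated, 4.91 and 11.3 at 1.5 hr), yet each was higher at 1.5 hr than untreated. Dancr, another snoRNA host, had 0.678, 1.68, 0.688 and 1.68 RPKM, with log2 changes of 1.31 at 1.5 hr and 1.31 at 24 hr, and was the one of the 24 called higher at 24 hr.

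5430416N02Rik, whose peak had the second most tags of the distal set, stood at 0.69, 1.87, 0.789 and 1.12 RPKM, with a log2 change of 1.44 at 1.5 hr, the largest positive one among the 24 genes. 6820431F20Rik had 8.28, 20.8, 5.88 and 13.1 RPKM and 1110038B12Rik had 6.23, 14.3, 4.06 and 9.19. Of the peak sequence of 6820431F20Rik 66.1% recurs elsewhere, so its level may be shared with copies. Relative to the library shift, the log2 changes at 1.5 hr were 1.03 for 5430416N02Rik, 0.97 for Snhg8, 0.92 for 6820431F20Rik, 0.89 for Dancr and 0.79 for 1110038B12Rik, so 4 of these 5 were no longer past 2-fold.

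The RNAs furthest below untreated at 6 hr were 1810058I24Rik (20.97, 14.2, 6.15 and 10.4 RPKM), 2210013O21Rik (8.18, 6.02, 2.41 and 3.75) and Snord104 (13.002, 11.003, 4.95 and 8.82). Their log2 changes were −1.77, −1.76 and −1.39, or −1.04, −1.03 and −0.66 relative to the shift. 1810058I24Rik and BC029722 are noncoding entries in the deposited table, but RefSeq has a coding gene of the same symbol that starts at each of the 2 peaks, so their place among noncoding RNAs depends on the annotation. The columns of Snord104 were 4.603 and 21.4 in the untreated library, so column R1 alone gave no drop of 2-fold. 2410006H16Rik (13.8, 16.9, 5.89 and 9.28), BC029722 (6.69, 6.11, 2.55 and 5.83) and 2610005L07Rik (6.33, 9.99, 3.20 and 6.59) were also lowest at 6 hr, and 65.6% of the peak sequence of 2610005L07Rik recurs elsewhere.

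Other listed RNAs were low. Firre had 2.82, 1.77, 1.53 and 1.552 RPKM, Snhg7 1.72, 1.59, 1.38 and 1.59, and Oip5os1 0.639, 1.15, 0.354 and 0.844. Nespas had 0.912, 0.328, 0.26 and 0.328, and Kcnq1ot1 0.384, 0.262, 0.24 and 0.266. Ftx stayed at or below 0.214, Mir17hg at or below 0.119 and Jpx at or below 0.039 RPKM, although their peaks held 717, 1353 and 700 tags. Distal peaks of the mark thus lay at RNAs listed at 0 in each library as well as at Meg3.

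**Figure D5:**
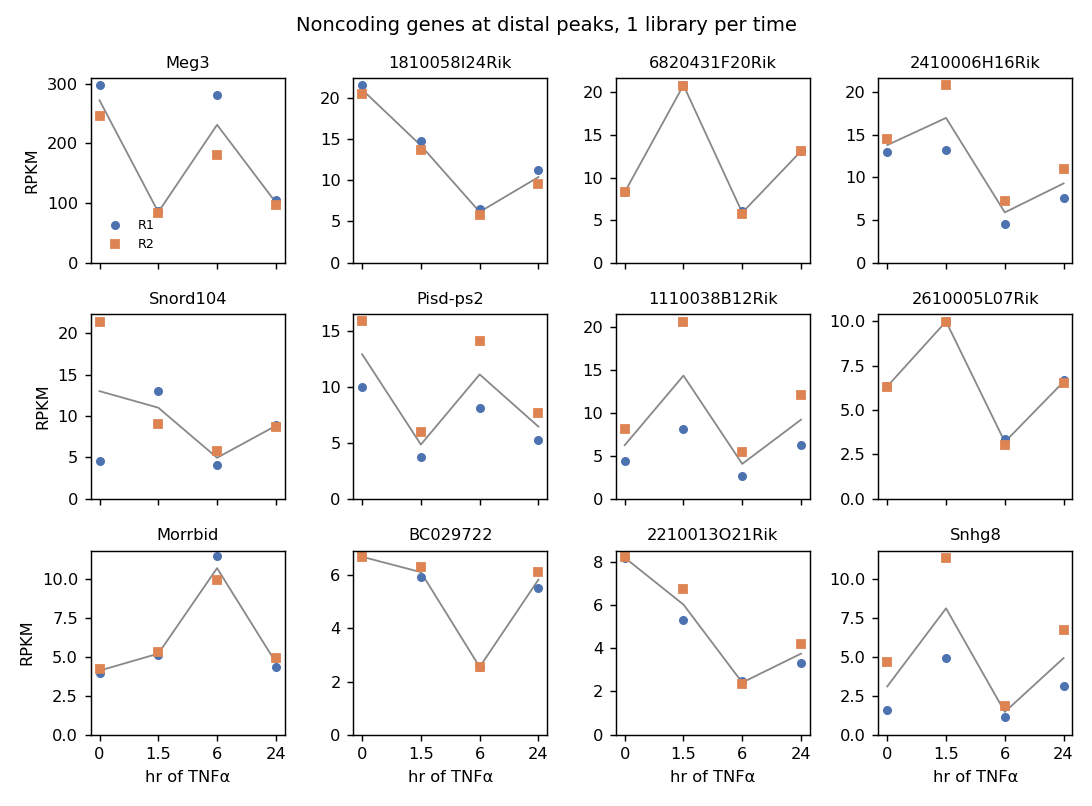
RPKM of the 12 most abundant noncoding genes at distal peaks in the untreated library (0 hr) and at 1.5, 6 and 24 hr of TNFα, 1 panel a gene, with points for columns R1 and R2 and a line through their mean. Meg3 stood at 272.4 RPKM untreated and 84.9 at 1.5 hr, and Morrbid was at 10.7 at 6 hr against 4.11 untreated.

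Alternative starts of coding genes involved 464 genes and 485 distal peaks. Of these genes 444 had 1 such peak, 19 had 2 and Pde4d, a cAMP phosphodiesterase with many promoters, had 5. Another peak lay within 1000 bp of the GENCODE gene start in 209 (45.04%). In the other genes the distal peak was at a downstream start, without a peak at the outermost GENCODE start. A RefSeq coding start, of the same gene or another, lay at 342 of the 485 peaks, so the name alternative rests on the GENCODE gene start. The untreated RNA level had a median of 0.836 RPKM in 461 genes with an entry, of which 46.64% were above 1, against 0.258 and 30.84% of 19720 coding genes.

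Of the 464, genes with a peak also at the gene start had a median of 1.08 RPKM and those without one 0.659. Of the 253 without one, 106 were above 1 RPKM. For comparison, 118 coding genes that held a start-less distal peak had a median of 0.345 with 25.42% above 1, and 313 genes nearest to a start-less peak outside genes had 0.418 with 34.5%. RNA levels were thus higher where the distal peak lay at one of the gene's own starts.

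Among the 8 of these genes with the highest untreated level, some had no peak at the GENCODE gene start. They were Gpx4, a lipid peroxide-reducing enzyme, Pabpc4, a poly(A)-binding protein, and Hsp90aa1, the inducible Hsp90. RefSeq places a start of the same gene at the distal peaks of Gpx4 and Pabpc4, and likewise of Eef1a1, Serpinb6a and Hdlbp. At that of Hsp90aa1 no RefSeq window of a coding gene was matched. For genes such as Gpx4 and Pabpc4, which start counts as the gene start thus depends on the annotation. Gpx4 had 127.1, 96.96, 56.5 and 97.6 RPKM over the 4 times. Pabpc4 had 42.5, 17.9, 73.9 and 21.3. Hsp90aa1 had 27.8, 30.5, 76.0 and 31.8. The latter pair were highest at 6 hr, where the median entry was lowest.

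Eef1a1, the translation elongation factor, had 140.5, 634.0, 125.5 and 401.0 RPKM, and its distal peak of 1823 tags lay 6081 bp from an annotated gene start with a peak of 183 tags. Hdlbp, an RNA-binding protein also called vigilin, had 22.5, 47.3, 10.6 and 31.4, and Serpinb6a, a protease inhibitor, 36.3, 33.7, 16.6 and 29.1. Rpl24, a ribosomal protein gene, had 75.1, 84.1, 26.6 and 81.4, and 1500032L24Rik 23.0, 22.0, 6.65 and 14.3. RefSeq places Zbtb11 at the peak of Rpl24 and Smdt1 at that of 1500032L24Rik, so the annotations differ on the gene of these 2 peaks.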

How the data were processed

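H3K4me3 ChIP-seq reads of untreated MEFs were mapped to mm9 with Bowtie, and the authors called peaks with MACS on 1 ChIP library against its input. The deposited list gives for each peak the count of ChIP tags, a score made from the p, the fold enrichment over local background as a ratio, which is 20.0 or more throughout, and an FDR in percent, at most 4.61. RNA-seq reads were mapped with TopHat, and the deposited RPKM values were made by the authors per RefSeq transcript with a script of their own, in columns R1 and R2 for each library. Names of mappers are from the submitters' processing notes and the study's methods. The deposited RPKM are on a scale of their own and were divided by one factor, 85.69, the median ratio to the study's listed RPKM over 6312 values (83.9 to 90.0 in single libraries). Fold changes do not depend on it, but the minimum of 1 RPKM does. Columns were tied to times through the library names that the study gives. Tags in listed peaks came to 12831722. Library totals were not used here, and RPKM keeps no depth.

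Gene starts were taken from GENCODE M1, and RefSeq starts from promoter windows of 300 bases matched base for base to mm9. A RefSeq start whose window did not match mm9 at every base was missed. A start was counted within 1000 bp of a peak, and from RefSeq only for coding genes and lncRNAs. CpG content was read in 1000 bp and motifs in 500 bp around the summit, and uniqueness from sequences of 31 bases in the same 1000 bp. RNA genes were called at 2-fold without a pseudocount, and no p was computed. Scripts used Python 3.11.15, pandas 2.3.3, scipy 1.17.1, pysam 0.24.0 and samtools 1.23.1, and counting steps were tested on simulated data. Distal peaks, lists and the naming rule were chosen with earlier results of these data known. Named peaks are the 10 with the most tags, the 10 with the highest fold enrichment, the 5 farthest from coding gene starts and those at the edges of the rule. Named RNAs are the listed ones at distal peaks, the 12 with the highest mean RPKM, and the 3 furthest above and the 3 furthest below untreated at each time with both columns on the same side. Named coding genes are the 8 with the highest untreated RPKM. The bins of GC content, the box search, the clusters, the miRNA hairpins and the RefSeq starts were added after the data were seen, and examples from them (Pde4d, hairpin hosts, peaks with a RefSeq start) were chosen after their values were seen.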

Additional observations from a re-analysis of the deposited data

How the results depend on the processing

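The number of distal peaks, 1383, was 813 with coding gene starts beyond 20000 bp, 882 with the starts of every coding transcript as starts, 901 with RefSeq coding starts as well and 868 at a fold enrichment of at least 30. The share at coding transcript starts was 41.13% at a fold enrichment of at least 30 and 43.75% with RefSeq starts. The share at noncoding gene starts was 16.49% within 5000 bp and 17.28% with RefSeq starts. The share without a start and outside coding genes was 36.15% within 5000 bp, 36.52% at a fold enrichment of at least 30 and 28.42% with RefSeq starts. Median tags per kb were 255.6 at a fold enrichment of at least 30 and 198.4 beyond 20000 bp, and median fold enrichment 45.05 and 34.13. The CpG-rich share was 44.11% in 500 bp, 13.67% in 2000 bp, 4.77% over the whole peak, 46.64% at a GC content of at least 50% and a ratio of at least 0.6, 37.1% at a fold enrichment of at least 30 and 18.11% in peaks without a start. AP-1 letters were in 4.63% of windows of 300 bp and 17.21% of 1000 bp, and Sp/Klf letters in 40.85% and 72.74%. Shorter windows hold fewer letters by construction, and stricter rules fewer peaks.

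Noncoding genes at least 2-fold from untreated numbered 9 at each time. At 1.5 hr there were 14 at 1.5-fold, 2 at 3-fold and 36 with no filter on RPKM, and the split of 5 higher and 4 lower became 1 and 8 after scaling to the median of ratios. At 6 hr the numbers were 16, 2 and 44, with 3 after scaling to the sum (3 higher and 0 lower, against 1 and 8) and 4 after scaling to the median of ratios (2 and 2). At 24 hr they were 14, 1 and 37, with 2 after adding 1 RPKM and 5 with both columns past the fold. The level of Morrbid at 6 hr became 17.7 RPKM after scaling to the median of ratios. The cause of the remaining shifts was not tested. Of 92 main comparisons with an alternative, 54 stayed within their limits and 38 moved, counting calls in both directions together. The balance of higher and lower calls turned with the scaling at 1.5 and 6 hr.

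No paired analysis was possible because each time and each ChIP had 1 library. The deposited list holds no peak under a fold enrichment of 20.0, so weaker distal peaks cannot be seen, and a single ChIP library gives no spread between cultures. RPKM without read counts gives no counting interval for the RNAs.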

Other observations

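Some genes that GENCODE M1 typed as noncoding or pseudogene carry the symbol of a coding gene in RefSeq. They were 12 in number, and a start so typed did not count as a coding gene start in the choice of distal peaks. Cebpd, a transcription factor of the acute-phase response, had a peak of 2012 tags at a fold enrichment of 53.3, and Kctd12, an auxiliary subunit of GABA-B receptors, one of 1259 tags at 22.1. Chmp1b, an ESCRT-III subunit, had 1455 tags at 100.2 and Spcs3, a subunit of the signal peptidase, 1168 at 68.0. For 8 of the 12, Kctd12 among them, RefSeq placed a coding start of the same symbol within 1000 bp of the peak. For the other 4, Cebpd, Chmp1b, Spcs3 and Rnf113a2, no RefSeq window with this symbol was matched there.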
